A study of Mus musculus with 10 samples.

Results

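The cells described here were sorted as CD11b+Gr-1+NK1.1+ from spinal cord on day 18 of experimental autoimmune encephalomyelitis (EAE), an induced autoimmune disease of the central nervous system that is used as a model of multiple sclerosis. The submitters named them cytotoxic macrophages. Their profile was taken from 3 RNA-seq libraries, here called UK1A, UK2A and UK3A after the columns of the tables, and a gene counted as expressed when it reached at least 1 TPM (transcripts per 1000000, a level that allows for transcript length) in all 3. This rule chose 6438 of 22064 genes (29.2%). Single libraries held 6618, 6635 and 6634 genes at that level, and 7537 genes had no read in any of the 3.

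The mice combined Pdgfra-CreER with floxed Apc alleles (Pdgfra-CreER:Apc-fl/fl), in which an inducible Cre recombinase is expressed from the promoter of a gene active in oligodendrocyte precursor cells. No source used here says whether or when the Cre was induced. All libraries from the cord shared this genotype and the EAE model, so no uninflamed or Apc-intact counterpart of the sort was analysed. The other sort from such cords, 1 sample, came from CD4+ cells and is labelled Th1. The series also holds oligodendrocyte precursor cultures, which are not used here. No source says that the 3 libraries came from separate animals, so each SD may hold technical spread alone. In a bulk sample, fewer cells of a type and less RNA per cell cannot be told apart.

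CD11b, the product of Itgam, is an integrin chain carried by granulocytes, monocytes and macrophages. The Gr-1 antibody binds Ly6G, which marks neutrophils, and also Ly6C, which marks inflammatory monocytes, while NK1.1 is the product of Klrb1c and is carried by natural killer (NK) cells. Neutrophils mature in the bone marrow and fill their granules in a fixed order, with the enzymes of primary granules first, the proteins of secondary granules next and gelatinase last, and they switch each set of genes off again before the next. In EAE, neutrophils and Ly6C-bearing monocytes enter the spinal cord from the blood and take part in the inflammation around demyelinating lesions.

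The genes that dominated the sort were those of neutrophil granules and cytosol, so the stretch of 250 bases before the annotated start is shown for 5 of them, the calprotectin genes S100a8 and S100a9 and the 3 most abundant genes of the secondary granule list, Lcn2, Camp and Ngp. The sequences are RefSeq promoters on GRCm38.p6, written 5′ to 3′ on the strand of the gene. Capitals mark matches, on either strand, to TTGCNNAA, a form of the site bound by C/EBP factors, or to GAGGAAGT, a form of the site bound by PU.1.
S100a8, chr3:90668821-90669070, plus strand: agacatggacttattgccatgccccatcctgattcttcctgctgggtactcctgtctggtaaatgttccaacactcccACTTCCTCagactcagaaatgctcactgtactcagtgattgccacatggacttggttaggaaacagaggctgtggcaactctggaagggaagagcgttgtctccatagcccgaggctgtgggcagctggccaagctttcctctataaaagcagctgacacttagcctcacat
S100a9, chr3:90695722-90695971, minus strand: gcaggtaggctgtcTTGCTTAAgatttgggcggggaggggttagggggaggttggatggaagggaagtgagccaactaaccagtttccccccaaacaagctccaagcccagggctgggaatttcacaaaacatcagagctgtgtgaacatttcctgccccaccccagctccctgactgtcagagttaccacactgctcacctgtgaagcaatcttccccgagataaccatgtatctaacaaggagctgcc
Lcn2, chr2:32387740-32387989, minus strand: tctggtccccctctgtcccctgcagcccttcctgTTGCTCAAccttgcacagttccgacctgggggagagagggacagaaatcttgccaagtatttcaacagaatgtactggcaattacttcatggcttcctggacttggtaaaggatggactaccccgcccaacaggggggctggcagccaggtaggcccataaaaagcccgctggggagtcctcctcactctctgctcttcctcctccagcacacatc
Camp, chr9:109849457-109849706, minus strand: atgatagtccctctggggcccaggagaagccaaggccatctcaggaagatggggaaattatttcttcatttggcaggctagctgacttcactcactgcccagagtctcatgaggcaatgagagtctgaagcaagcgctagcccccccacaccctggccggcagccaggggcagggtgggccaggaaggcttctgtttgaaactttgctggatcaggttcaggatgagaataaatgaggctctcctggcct
Ngp, chr9:110419558-110419807, plus strand: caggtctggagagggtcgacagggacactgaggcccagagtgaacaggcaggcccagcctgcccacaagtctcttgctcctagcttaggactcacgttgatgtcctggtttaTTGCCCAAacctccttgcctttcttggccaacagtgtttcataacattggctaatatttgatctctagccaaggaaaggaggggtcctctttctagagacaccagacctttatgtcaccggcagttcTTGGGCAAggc
The S100a8 stretch held 1 PU.1 match and no C/EBP match, with a TATAAA box beginning 30 bases before the start. The C/EBP match began 236 bases before the start in S100a9 and 216 bases before it in Lcn2. Ngp held C/EBP matches beginning 138 and 11 bases before its start. The Camp stretch held no match to these forms, nor to the AP-1 and TATA forms given next. No capitalised match overlapped another. Over the neutrophil, primary granule and secondary granule lists, 9 of 35 promoters of 33 genes held a C/EBP match (25.7%), against 9.56% of 32851 promoters of this length over all genes and 8.38% of those of genes expressed in the sort. PU.1 matches stood in 9 of the 35 (25.7%), against 2.44% over all genes and 3.14% over expressed genes. For the 100 most abundant genes, 91 promoters of 77 genes were found. C/EBP matches stood in 10 of these 91 (10.99%) and PU.1 matches in 4 (4.40%). Both shares lay nearer those over all genes than those of the lists, so the higher shares describe the lists and not the abundant genes as a set. The AP-1 form TGANTCA, searched on both strands, stood in 2.86% of the 35 against 6.75% over all, and TATAAA on the gene's strand in 14.3% against 7.59%. These shares describe letters in a window, and no binding was measured.

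S100a8 alone took 31.0% of TPM. Its level was 310011, 312567 and 308610.0 TPM in UK1A, UK2A and UK3A, and every later value of 3 numbers is in that order. S100a8 (chromosome 3, 90669071 to 90670034) encodes a calcium-binding subunit of calprotectin, and its partner S100a9 (chromosome 3, 90692630 to 90695721) stood at 64532, 65007 and 65396 TPM. As means over the 3 libraries with their SD (n = 3, here and below), these are 310396 ± 2006 and 64978 ± 433 TPM. Retnlg, a resistin-like protein of neutrophils (chromosome 16, 48872608 to 48874498), followed with 31577, 30513 and 30847 TPM, and Lyz2, the myeloid lysozyme (chromosome 10, 117277541 to 117282272), with 22805, 22561 and 22669.9 TPM. For each of these 4 genes the libraries lay within a few percent of each other, and their order was the same in all 3.

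The 10 most abundant genes took between 49.3% and 49.6% of TPM in a library and the 25 most abundant between 58.6% and 58.8%. Beyond the first 4, these 25 fell into few groups. Granule and secreted proteins were Lcn2 at 10331 ± 109, Camp at 10089 ± 102, Wfdc17 at 9912 ± 412, Ngp at 7188 ± 213 and Wfdc21 at 5305 ± 275 TPM. Signalling adaptors of activating receptors were Tyrobp at 10627 ± 284 and Fcer1g at 6673 ± 109.6 TPM. The actin-related genes Tmsb4x and Actb stood at 14975 ± 220.5 and 5384 ± 36.9 TPM, and the calcium-binding S100a11 and S100a6 at 9636 ± 74.1 and 4987 ± 113 TPM. The antiviral membrane proteins Ifitm3 and Ifitm2 were at 8226 ± 58.9 and 5949 ± 110.1, the surface antigens Cd52 and Ly6c2 at 6907 ± 78.1 and 6376 ± 160.2, the iron store Ftl1 at 5300.2 ± 74.7 and the LIM protein Crip1 at 5887 ± 55.0 TPM. The rest were the ribosomal genes Rps27, Rpl32, Rpl41 and Rps29, between 5500.2 ± 281 and 7177 ± 118 TPM. Ribosomal protein genes in all made up 14.2% to 14.4% of TPM, with 84 of 85 expressed.

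**Figure D1:**
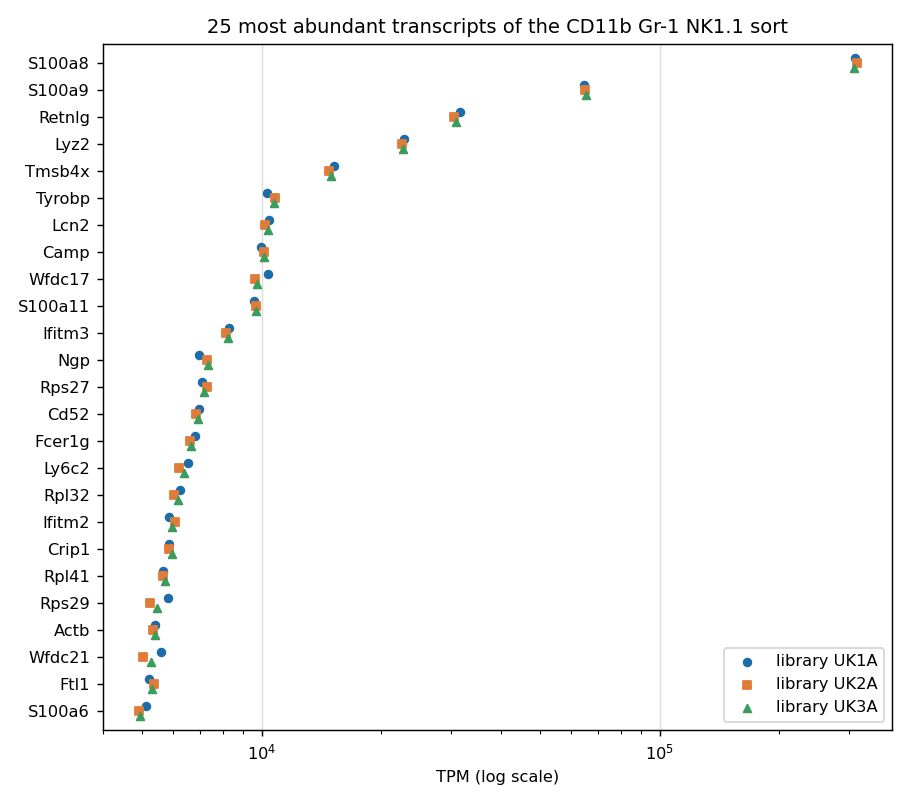
TPM on a log scale for the 25 most abundant genes, 1 symbol per library (circle UK1A, square UK2A, triangle UK3A). S100a8 stands at 308610 to 312567 TPM, above S100a9 at 64532 to 65396, and the symbols of a gene nearly coincide.

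Levels were spread over 5 powers of 10. Of the 6438 expressed genes, 4221 lay between 1 and 10 TPM, 1649 between 10 and 100, 443 between 100 and 1000, 117 between 1000 and 10000, and 8 at 10000 TPM or more. Those 8 held 47.5% of all TPM, whereas the 4221 of the lowest class held 1.5%. The median expressed gene stood at 4.95 TPM. Just inside the rule lay 1700010I14Rik, Atrip and Clpx, whose lowest library was at 1.0 TPM, and just outside it Aar2, Antxr2 and Arhgap31, whose lowest library was at 0.99 TPM.

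How large the leading genes look depends on the length they are divided by. The deposited tables give reads and FPKM (reads per length and per library size) for each gene, from which the length used can be read back. Apart from rounding, TPM and FPKM stood in a constant ratio within each library, so both rest on the same lengths. The length used fell short of the annotated transcript by a median of 213 bases (quartiles 199 and 257) over 808 expressed genes with 1 coding transcript of 400 to 2000 bases. For S100a8 the length used was 185 bases. The 25 leading genes are short, with a median full length of 603 bases against 2108 for all expressed genes, so the subtraction weighs more on them. With 213 bases added back to every gene, S100a8 took 23.3% ± 0.15 (SD, n = 3) of TPM in place of 31.0% ± 0.20, and the 25 leaders took 52.2% in place of 58.7%. This full length was 398 bases for S100a8, still short of the 486 bases of its annotated transcript. By reads, with no length correction, S100a8 took 11.3% to 11.5% of a library. The first 5 genes kept their order at full length, while Rps27 moved from rank 13 to 28 and Actb from 22 to 13. All levels below are the deposited TPM.

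**Figure D2:**
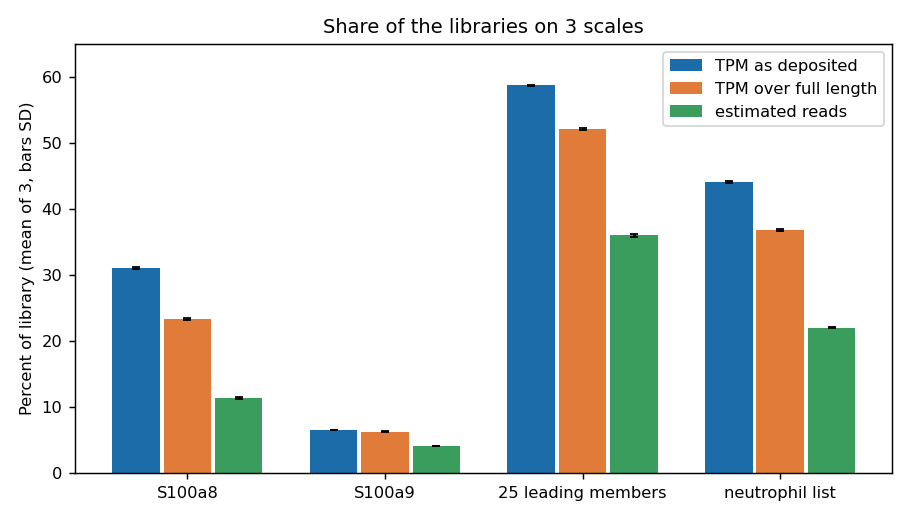
Percent of the library (bars, mean of 3 libraries, error bars SD) for S100a8, S100a9, the 25 leading genes and the neutrophil list, by deposited TPM, by TPM over full length and by reads. S100a8 falls from 31.0% to 23.3% and 11.4% across the 3 scales, S100a9 from 6.50% to 6.26% and 4.05%.

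The 3 libraries were much alike. Pearson's r of log2(TPM + 1) across the 6438 genes, which are not independent replicates, ran from 0.9991 to 0.9992 for the 3 pairs. The median coefficient of variation (CV, the SD as a percent of the mean) was 3.93%, 5890 genes were under 10% and 52 at 20% or more. Each pair still differed by more than counting error, since over 10236 genes with at least 20 reads the variance was 2.63 times that of counting for UK1A and UK2A, 1.98 times for UK1A and UK3A, and 1.30 times for UK2A and UK3A. They were therefore treated as 3 libraries. For genes of 20 to 100 reads those ratios were 1.34, 1.23 and 1.19, so the spread of low genes was near the counting limit. UK1A stood slightly apart, being the lowest library for 61 of the 100 most variable genes. Among genes at 10 TPM or more the largest CVs belonged to the ribosomal pseudogene Rpl31-ps12 (22.3%), Ndufb4b (19.0%) and Mxra7 (18.2%), followed by the replication-dependent histone genes H3c4, H4c9 and H2ac11 at 14.5%, 12.6% and 12.2%. Ehbp1l1, the resistin gene Retn, the peptide transporter Tap1 and the chaperone Anp32e completed the 10, at 12%, 11.3%, 11.3% and 11%. Reads of Rpl31-ps12 and Ndufb4b may be shared with near-identical copies.

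By summed TPM the neutrophil list stood far above that of every other listed cell type, including the one in the name of the sort. All 18 listed neutrophil genes were expressed, and together they took 44.1% ± 0.14 of TPM (SD, n = 3). This value was 36.8% at full length and 19.0% when S100a8 was left out and the rest scaled again. Most of the sum came from S100a8 and S100a9, at 31.0% and 6.50% of TPM. Which cells of the sort carried them was not tested. The median listed gene stood at 493 TPM, against 21.3 in the monocyte list and 6.50 in the macrophage list. Of the sort's markers, Lcn2, an iron-scavenging lipocalin, was at 10428, 10212 and 10352 TPM, and Ly6g, the neutrophil part of the Gr-1 antigen, at 727, 749 and 754 TPM. The receptors Cxcr2 and Csf3r, through which neutrophils sense CXC chemokines and G-CSF, were at 48.4 ± 0.69 and 28.1 ± 0.83 TPM. Il1r2, a decoy receptor for interleukin-1, was at 61.2 ± 1.47, Cd177 at 55.0 ± 1.25, and the lowest of the list, Trem1, at 12.6 ± 0.61 TPM.

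Monocyte genes were nearly all present at much lower sums. 17 of 18 listed genes were expressed, at 1.31% ± 0.014 of TPM, and the exception, Ace, stood at 0.82, 0.98 and 0.95 TPM. Ly6c2, the monocyte part of the Gr-1 antigen, had 6536, 6216 and 6375 TPM, and Plac8 4653 ± 18.7 TPM. The chitinase-like Chil3 was at 1072 ± 21.1 and Ms4a6c at 535 ± 18.3 TPM. Ccr2, which draws monocytes out of the marrow, stood at 29.7 ± 0.62, Csf1r, the receptor for M-CSF, at 19.6 ± 0.34, and Fn1 and Vcan at 8.18 ± 0.04 and 3.63 ± 0.079 TPM. Ly6c2, Plac8 and Chil3 are also transcribed in maturing granulocytes, so the list is not exclusive to monocytes.

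Of the macrophage list 12 of 20 genes were expressed, and Lyz2, which neutrophils also carry, made up most of its 2.47% ± 0.0091 of TPM. After Lyz2 came Lgals3 at 1032 ± 16.1, the lipoprotein Apoe at 307 ± 3.34 and the lysosomal Cd68 at 207 ± 6.09 TPM. The complement genes C1qa, C1qb and C1qc were at 106 ± 4.27, 161 ± 4.46 and 91.6 ± 1.56 TPM and the lipid-sensing receptor Trem2 at 59.6 ± 2.48 TPM. Adgre1, which encodes F4/80, was at 7.81, 7.61 and 7.46 TPM. The receptors that mark resident and phagocytic macrophages were below the threshold, with Mertk at 0.34, 0.25 and 0.30, Mrc1 at 0.17, 0.13 and 0.16, Cd163 at 0.05, 0.05 and 0.05 and Timd4 at 0.04, 0.12 and 0.14 TPM. The name cytotoxic macrophage is therefore used below as a label only.

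Other blood and tissue cells left small traces. Microglia genes summed to 83.6 to 84.9 TPM with 8 of 10 expressed, among them the defining Tmem119 at 3.61 ± 0.23 and P2ry12 at 3.76 ± 0.076 TPM, while Sall1 was at 0.21 ± 0.036 TPM. Dendritic cell genes summed to 1324 to 1356 TPM with 5 of 14 expressed, mostly from Cd74 and H2-Ab1, and Flt3, Zbtb46, Xcr1 and Clec9a were each below 1 TPM. T cell genes summed to 4.04 to 4.73 TPM with 1 of 16 expressed, Cd3d at 2.87 ± 0.30 TPM. B and plasma cell genes reached 9.79 to 9.95 TPM with 3 of 11 expressed, led by Cd79b at 4.40 ± 0.21 TPM. Globin transcripts were more plentiful, with Hba-a2 at 1453, 1490.2 and 1482 TPM and Hbb-bs at 955 ± 25 TPM, and the erythroid list as a whole at 3678 to 3744 TPM. The genes of red-cell precursors Klf1 and Epor were below 1 TPM. Mast cell and basophil genes gave 1 of 11, the histidine decarboxylase Hdc at 29.4 ± 0.38 TPM, with Cpa3, Mcpt4, Tpsb2, Fcer1a and Prss34 at 0. Among eosinophil genes Ear2 was at 112 ± 2.55 TPM, whereas Epx, Il5ra and Siglecf were below 1 TPM. Platelet genes summed to 18.3 to 19.6 TPM, led by Pf4 at 12.5 ± 0.40 TPM.

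Neural and vascular transcripts were scarce in a sort from spinal cord. Oligodendrocyte genes summed to 6.44 to 6.91 TPM with Mbp at 3.72 ± 0.11 and Cnp at 2.71 ± 0.23 TPM, and Mog, Olig2, Sox10, Pdgfra and Cspg4 had no read. Astrocyte and neuron genes summed to 0.81 to 0.89 and 0.11 to 0.19 TPM, with none of 8 and none of 8 expressed and Aqp4 and Rbfox3 at 0. Of 12 endothelial and mural genes Acta2 was expressed, at 5.52 ± 0.24 TPM. Col1a1 stood at 0.56, 0.04 and 0.05 TPM, high in UK1A against the other libraries. Apc, the gene floxed in these mice, was at 0.46, 0.38 and 0.40 TPM, and Pdgfra, whose promoter drives the Cre, had no read in any of the 3. With no Apc-intact sort, these values check nothing about the deletion. The part of these traces in the results below was not tested, except where a value is given.

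**Figure D3:**
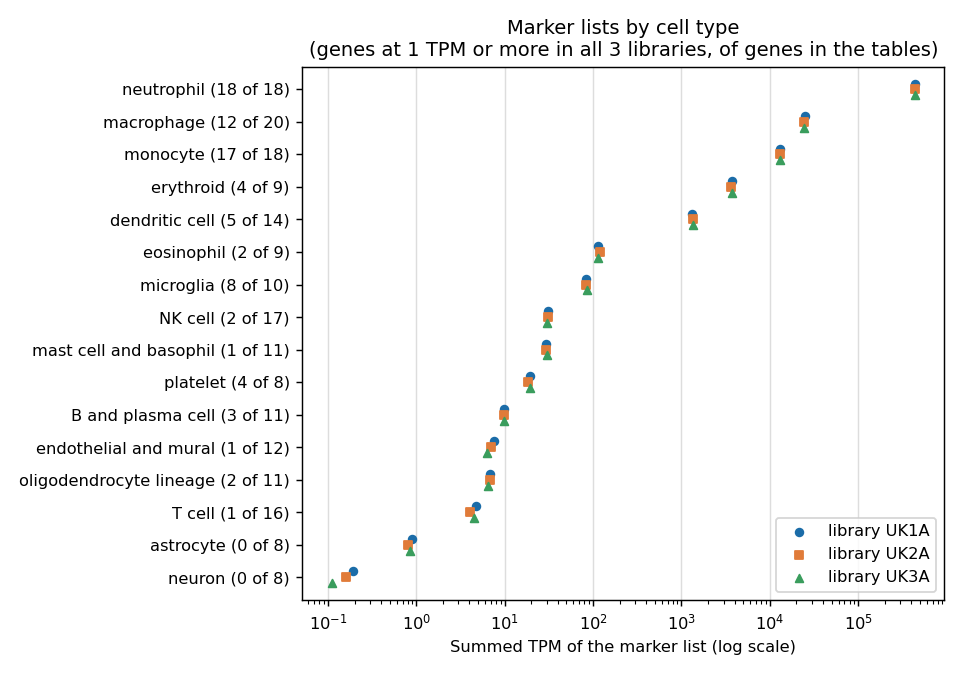
Summed TPM (log scale) of each cell type marker list in the 3 libraries, with the number of genes at 1 TPM or more in all 3 beside the name. The neutrophil list lies between 440096 and 442925 TPM, macrophage and monocyte lists between 12923 and 24769, and T cell, astrocyte and neuron lists below 5 TPM.

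The genes behind the sorting antibodies were unequal. Itgam (chromosome 7, 128062640 to 128118491) was at 12.6, 12.4 and 11.9 TPM, Ly6g (chromosome 15, 75155261 to 75159128) and Ly6c2 (chromosome 15, 75108161 to 75112066) at the levels above, and the close paralog Ly6c1 at 45.8, 42.4 and 42.2 TPM. Reads of Ly6c1 and Ly6c2 may be split between them. Klrb1c (chromosome 6, 128778485 to 128788641), which encodes NK1.1, had 8, 11 and 6 reads, or 0.07, 0.10 and 0.05 TPM. Transcript of the third antigen of the gate was thus near the limit of detection in each library, where 3 reads correspond to 0.127 to 0.129 CPM (counts scaled to library size). A count of transcripts does not measure the protein on which cells are sorted.

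NK cell genes and cytotoxic effectors followed Klrb1c. 2 of 17 listed NK genes were expressed, Nkg7 at 16.6 ± 0.41 and Gzma at 8.79 ± 0.31 TPM, and the list summed to 30.1 to 31.1 TPM. The count became 5 of 17 when TPM were scaled again without S100a8 or taken over full length. Klrk1 and Klrd1, which encode NKG2D and CD94, stood near the threshold at 1.75, 0.93 and 1.37 and 0.93, 1.27 and 1.15 TPM. Ncr1, the defining NK receptor NKp46, was at 0.18, 0.15 and 0.16 TPM, and the transcription factors Eomes and Tbx21 at 0.0033 ± 0.0058 and 0.01 ± 0.01 TPM. Perforin (Prf1) stood at 0.06, 0.10 and 0.08 TPM, granzyme B (Gzmb) at 0.35, 0.36 and 0.31 and Fas ligand (Fasl) at 0.06 ± 0.026 TPM. Of 15 cytotoxic effector genes 4 were expressed, and the leader, the granule proteoglycan Srgn at 775 ± 14.2 TPM, is common to granule-bearing blood cells, as is the protease-activating Ctsc at 35.7 ± 1.41 TPM. NK receptors gave 5 of 25, or 8 without S100a8 or at full length. Those expressed were Fcgr4, an activating Fc receptor of neutrophils and monocytes, at 50.9 ± 0.18, the Ly49 family members Klra2 and Klra17 at 29.0, 30.2 and 29.4 and 15.1, 16 and 16.9, Cd244a at 3.79 ± 0.11 and Klrb1f at 2.45 ± 0.15 TPM. Klra2 and Klra17 thus stood more than an order of magnitude above the Ly49 genes of NK cells, Klra7 at 0.94 ± 0.14, Klra8 at 0.36 ± 0.055 and Klra4 at 0.24 ± 0.029 TPM. Ly49 genes are near-identical to one another, and reads may be split among them.

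Maturation genes showed strong secondary granule and late genes with weaker but present early ones. All 14 secondary granule genes were expressed, and they summed to 3.70% ± 0.026 of TPM. The sum includes B2m at 4559 ± 33.7, Cyba at 1626 ± 35.2 and Chil3 at 1072 ± 21.1 TPM. These also stand in the MHC class I, oxidase and monocyte lists, so the sum is not exclusive to this stage. Camp, the cathelicidin precursor, was at 9972, 10154 and 10141 TPM, and Ngp, a cystatin-like granule protein, at 6942, 7304 and 7318 TPM. Ltf, lactoferrin, was at 316, 313 and 316, the collagenase Mmp8 at 123, 120.4 and 120.2 and the acute-phase protein Hp at 971 ± 11.4 TPM. The lowest was Olfm4 at 1.57, 1.97 and 1.67 TPM, a gene known to be carried by a subset of neutrophils.

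Primary granule genes, which belong to the promyelocyte stage, were expressed for 10 of 11 genes at 2160.2 to 2181 TPM in sum. Lyz1, a second lysozyme whose sequence is close to Lyz2, supplied most at 1663 ± 17.1 TPM. The membrane protein Cd63 and the elastase inhibitor Serpinb1a were at 94.0 ± 1.40 and 77.9 ± 0.50 TPM. The serine proteases ranged widely, with proteinase 3 (Prtn3) at 207, 223 and 221, neutrophil elastase (Elane) at 60.1, 59.9 and 59.9 and cathepsin G (Ctsg) at 11.5, 11.3 and 12.1 TPM. Myeloperoxidase (Mpo), the most plentiful protein of these granules, was at 1.54, 1.59 and 1.28 TPM, just above the threshold, and Bpi at 0.04, 0.01 and 0.03 TPM. Prtn3 transcript was thus more than 100 times that of Mpo in each library.

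Of the tertiary granule and secretory vesicle genes 12 of 13 were expressed. Slpi, an inhibitor of elastase, led at 2114 ± 35.4 TPM, followed by the formyl peptide receptor Fpr1 at 77.6 ± 1.35 and the endotoxin co-receptor Cd14 at 59.9 ± 2.09 TPM. Gelatinase B (Mmp9), the protein that names these granules, was at 58.1, 59.8 and 59.3 and leukolysin (Mmp25) at 4.36, 4.82 and 4.83 TPM. Alpl, alkaline phosphatase, had 1 read in UK3A and none in the others. Late neutrophil genes were expressed for 13 of 15 genes and summed to 4.43% ± 0.094 of TPM. After Retnlg and Wfdc17 came the methionine sulfoxide reductase Msrb1 at 1590.3 ± 16.2, the stefin Stfa2l1 at 671 ± 7.71, the chemokine Ccl6 at 558 ± 6.56 and Il1b at 404 ± 3.21 TPM. Cxcr4, which holds neutrophils in the marrow and returns on aged cells, was at 3.75, 3.78 and 3.92 TPM against 48.7, 47.6 and 48.8 for Cxcr2. Cd274 and Ptgs2 were below 1 TPM in all 3 libraries.

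Cell-cycle genes were present near the level of the typical expressed gene. The median gene of the progenitor and cell cycle list stood at 5.2 TPM, against 4.95 TPM for the median expressed gene. 10 of 14 genes of the progenitor and cell cycle list were expressed, led by Birc5 at 82.1, 79.2 and 83.0 and the replication clamp Pcna at 30.6, 30.9 and 31.4 TPM. Mki67 was at 2.74, 2.67 and 2.49, Top2a at 5.98 ± 0.23, Cdk1 at 4.8 ± 0.20 and Ccnb1 at 5.60 ± 0.26 TPM. The stem and progenitor genes Kit, Cd34 and Sox4 were at 0.037 ± 0.012, 0.50 ± 0.06 and 0.073 ± 0.015 TPM. In a bulk library these values do not say whether few cells or many carried the transcripts.

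**Figure D4:**
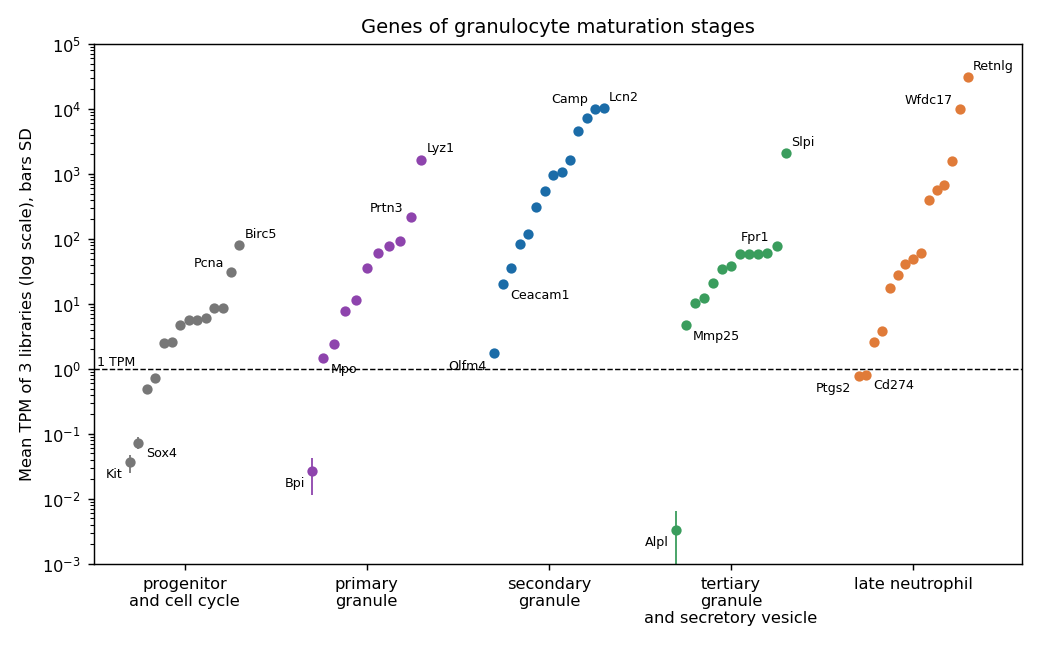
Mean TPM (log scale, bars SD of 3 libraries) of each listed gene, ordered within 5 stages of granulocyte maturation, with the dashed line at 1 TPM and the highest and lowest genes named. Secondary granule genes reach 10331 TPM (Lcn2) and primary granule genes 1663 TPM (Lyz1) with Mpo at 1.47 TPM, and the lower bar of Alpl runs off the axis.

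Receptors that steer cells to inflamed tissue were led by those for leukotriene B4 and formyl peptides. Ltb4r1, the leukotriene B4 receptor, stood at 82.5, 84.0 and 82.3 TPM, Fpr1 at 78.9, 76.2 and 77.7 and Fpr2 at 58.5, 58.4 and 57.4 TPM. The complement C5a receptor C5ar1 was at 32.6 ± 0.63 TPM, the ATP-gated channel P2rx7 at 12.6 ± 0.41 TPM and C5ar2 at 1.20 ± 0.10 TPM, with 10 of 18 of this list expressed. Among chemokine receptors 7 of 23 were expressed, in the order Cxcr2, Ccr2 (30.4, 29.3 and 29.4), Ccr1 (27.8, 28.0 and 28.9), Ccrl2 (26.4, 25.1 and 25.1), Cx3cr1 (21.6, 23.2 and 22.4), Cxcr1 (12.3, 12.2 and 12.6) and Cxcr4. Ccr2 and Ccr1 were neighbours whose libraries did not overlap. Ccr7, Cxcr3, Cxcr6 and Ccr6, typical of lymphocytes and dendritic cells, were each below 1 TPM.

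Fc receptors and partners of immunoreceptor tyrosine-based activation motifs (ITAM) were expressed without exception, at 20 of 20 genes and 1.84% ± 0.018 of TPM. The ITAM adaptors Tyrobp (chromosome 7, 30413782 to 30417582) and Fcer1g (chromosome 1, 171229572 to 171234349) stood at 10301, 10825 and 10755 and 6797, 6589.7 and 6633 TPM. The related adaptor Hcst was at 326 ± 3.01, the low-affinity IgG receptor Fcgr3 at 297 ± 3.39 and Trem3 at 149 ± 4.65 TPM. The inhibitory Fcgr2b was at 34.6 ± 0.90, the high-affinity Fcgr1 at 25.2 ± 0.28 and the kinase Syk, which acts on these adaptors, at 6.75 ± 0.084 TPM. Tyrobp and Fcer1g thus exceeded every receptor of the list by more than 20-fold. Inhibitory receptors gave 14 of 19, with Lilrb4a at 156 ± 2.02, Clec4a2 at 91.7 ± 1.44, Clec12a at 77.4 ± 0.40 and Pilra at 68.1 ± 2.16 TPM. The checkpoint genes Cd274, Pdcd1lg2 and Havcr2 were at 0.82 ± 0.12, 0.063 ± 0.012 and 0.69 ± 0.13 TPM.

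Pattern recognition genes numbered 22 of 30. The inflammasome adaptor Pycard led at 166 ± 7.45 TPM, followed by the C-type lectin Clec4d at 87.6 ± 2.97, Cd14 at 59.9 ± 2.09 and Ly96, the MD-2 co-receptor of TLR4, at 53.7 ± 1.51 TPM. Toll-like receptor genes themselves were low, with Tlr2 at 6.79, 6.88 and 6.65, Tlr13 at 4.02, 4.28 and 3.87 and Tlr4 at 0.56, 0.54 and 0.56 TPM. Tlr3, Tlr5 and Tlr9 were below 1 TPM, and Tlr1, Tlr6, Tlr7 and Tlr8 lay between 1 and 2 TPM. Casp1, which matures interleukin-1 beta, was at 27.9 ± 0.83 TPM and the inflammasome sensor Nlrp3 at 2.69 ± 0.099 TPM.

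Cytokine receptors were expressed for 24 of 39 genes. Interferon receptor chains were unequal, with Ifnar2 at 82.7, 81.7 and 86.8 TPM and its partner Ifnar1 at 1.45, 1.26 and 1.29 TPM, while Ifngr1 and Ifngr2 were at 24.0 ± 0.60 and 35.8 ± 1.93 TPM. For interleukin-1 the decoy Il1r2 stood at 62.5, 59.6 and 61.5 TPM, whereas the signalling receptor Il1r1 had 3, 1 and 0 reads, or 0.01, 0 and 0 TPM. Receptors for colony-stimulating factors were Csf2ra at 39.3 ± 1.59, Csf3r at 28.1 ± 0.83, Csf1r at 19.6 ± 0.34 and Csf2rb at 16.4 ± 0.53 TPM. Tnfrsf1a, the main receptor for tumour necrosis factor, was at 37.2 ± 0.42 and Il17ra at 9.90 ± 0.30 TPM. Il7r, Il2rb, Il12rb1, Il1rl1 and Kit were below 1 TPM. Adhesion genes gave 13 of 20, led by the selectin ligand Selplg at 125 ± 3.41, the phagocytosis inhibitor Cd47 at 69.5 ± 1.90 and, further down, the beta-2 integrin Itgb2 at 34.6 ± 0.12 TPM. Itgax, which encodes CD11c, was at 0.34, 0.30 and 0.34 TPM.

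Among chemokines and cytokines, Cxcl2 and Ccl6 led. Cxcl2, a ligand of CXCR2, stood at 681, 688 and 686 TPM and Ccl6 at 550.4, 562 and 561 TPM. Ccl2, the main ligand of CCR2, was at 173, 171 and 177 TPM, and the CCR1 ligands Ccl3, Ccl5 and Ccl4 at 143, 140.1 and 142, 119, 127 and 123 and 116, 119.6 and 118 TPM. The annotated spans of Ccl3 and Ccl4 overlap on chromosome 11, so their reads may be shared. Of the CC chemokines 11 of 19 and of the CXC and other chemokines 8 of 16 were expressed. Cxcl10, induced by interferon, was at 30.4 ± 0.98 and Cxcl1 at 7.03 ± 0.20 TPM. The dendritic cell chemokines Ccl17 and Ccl22 and the homeostatic Cxcl14 had no read.

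**Figure D5:**
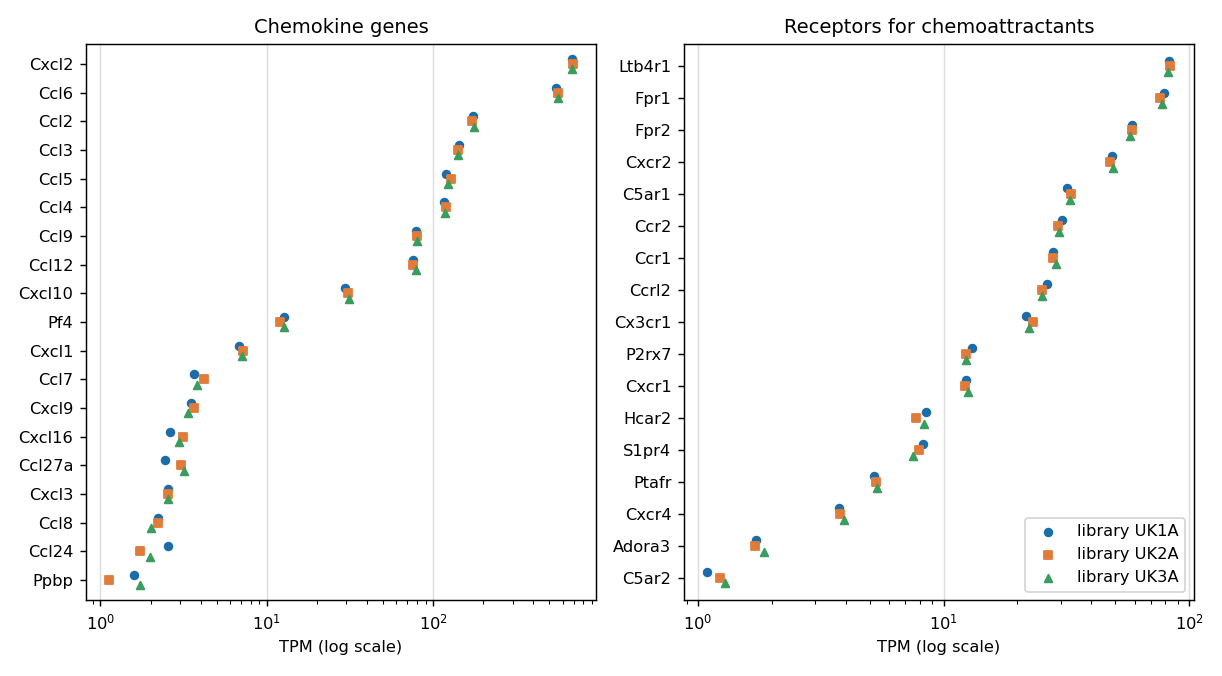
TPM (log scale) of the expressed chemokine genes (left) and receptors for chemoattractants (right), 1 symbol per library. Cxcl2 and Ccl6 lie above 550 TPM, Ccl2, Ccl3, Ccl5 and Ccl4 between 116 and 177, and the receptors Ltb4r1 and Fpr1 between 76.2 and 84.0 TPM.

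The cytokine and growth factor list had 21 of 41 expressed. Il1b (chromosome 2, 129364569 to 129371164), the precursor of interleukin-1 beta, stood at 405, 400.2 and 407 TPM, and its natural antagonist Il1rn at 7.85, 8.37 and 8.34 TPM, while Il1a was at 0.33, 0.40 and 0.34. Mif was at 327 ± 4.08, the progranulin gene Grn at 69.7 ± 1.41 and Tgfbi at 60.1 ± 0.98 TPM. Oncostatin M (Osm), a cytokine of the interleukin-6 family, was at 49.2, 50.7 and 53.0 TPM. Ebi3 was at 40.2 ± 1.53 TPM, with its interleukin-27 partner Il27 at 6.91 ± 0.36 and its interleukin-35 partner Il12a at 0.13 ± 0.07 TPM. Il1f9, also called IL-36 gamma, stood at 35.4 ± 0.54, Il18 at 23.5 ± 0.84, Tgfb1 at 18.5 ± 0.70 and Tnf at 4.34, 4.32 and 4.07 TPM. Il6 was at 0.82, 0.85 and 0.67 TPM and Il23a at 0.027 ± 0.031 TPM, and Il12b had no read. Csf2 and Csf3 had no read, Il10 was at 0.14 ± 0.02 and Ifng at 0.09, 0.09 and 0.13 TPM.

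Protease and inhibitor genes were expressed for 24 of 32 genes, and 2 inhibitors led. Cystatin C (Cst3) stood at 2907 ± 45.9 and Slpi at 2114 ± 35.4 TPM, followed further down by the inhibitors Stfa2l1 at 671 ± 7.71 and Cstb at 498 ± 6.84 TPM. The stefins Stfa1, Stfa2 and Stfa3 were at 214 ± 2.93, 84.9 ± 1.02 and 25.6 ± 0.35 TPM, and reads may be split among these near-identical neighbours on chromosome 16. Among proteases the lysosomal Ctss was at 707 ± 2.18, Ctsz at 169 ± 0.61 and Ctsb at 137 ± 1.01 TPM. The macrophage protease genes Mmp12, Mmp14 and Plau were at 0.01 ± 0.017, 0.46 ± 0.045 and 0.12 ± 0.07 TPM. Complement genes gave 11 of 19, with the C1q chains first, properdin (Cfp), which neutrophils store, at 59.4 ± 1.68 TPM and C3 at 17.4 ± 0.28 TPM. C1s1 had no read and C1ra was at 0.36 ± 0.035 TPM. Of 16 S100 genes 8 were expressed, all on chromosome 3. After the genes already given came S100a4 at 1632 ± 10.8, S100a10 at 763 ± 13.7, S100a1 at 127 ± 3.61 and S100a13 at 108 ± 4.66 TPM, and the spans of S100a1 and S100a13 overlap.

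The transcription factors of the sort were those of granulocytes and monocytes, with immediate early genes beside them. Of the myeloid factors 29 of 38 were expressed. Cebpb (chromosome 2, 167688915 to 167690432), the C/EBP factor of emergency granulopoiesis, stood at 307, 284 and 289 TPM, and Spi1 (chromosome 2, 91082374 to 91115759), which encodes PU.1, at 236, 251 and 249 TPM. Cebpe, required for secondary granules, was at 27.3, 29.8 and 29.3, Cebpd at 33.1 ± 1.87 and Cebpa, which acts at an earlier stage, at 3.79, 4.34 and 4.43 TPM. Id2, a blocker of E proteins, and Klf2 were at 95.2 ± 0.63 and 76.8 ± 1.55 TPM. The monocyte factors Irf8 and Klf4 were at 17.1 ± 0.56 and 5.69 ± 0.39 TPM. Gfi1, a transcriptional repressor, was at 0.07, 0.14 and 0.10 TPM, and Myb, Irf4 and Gfi1b were likewise below 1 TPM.

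Inflammatory factors were expressed for 34 of 39 genes. Fos was at 399, 408 and 407 TPM and Junb at 167, 199 and 189.6 TPM, the latter lowest in UK1A. The NF-kappa B inhibitor Nfkbia stood at 217 ± 6.16 and Ier2 at 113 ± 6.17 TPM. The subunits Rela, Nfkb1, Rel and Relb were at 6.58 ± 0.11, 3.67 ± 0.057, 1.30 ± 0.07 and 2.07 ± 0.22 TPM, and Hif1a at 3.57 ± 0.12 TPM. Fos, Junb and Ier2 are immediate early genes, which many stimuli induce within minutes. Of 21 factors of lymphoid and other lineages 2 were expressed, Batf at 21.6 ± 1.14 and Batf3 at 9.64 ± 0.61 TPM, both of which also act in myeloid cells. Tbx21, Gata3, Foxp3 and Eomes were at 0.03 TPM or less in every library, and Tox had no read.

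Glycolytic and respiratory chain genes were both broadly expressed. Of 25 glycolysis genes 21 were expressed, with Gapdh at 1595, 1673 and 1671, Aldoa at 316 ± 2.53, Eno1 at 293 ± 3.54 and Pkm at 135 ± 3.79 TPM. Glucose entry and the committed steps were lower, with the transporter Slc2a3 at 6.49 ± 0.067, Slc2a1 at 4.75 ± 0.37, the hexokinase Hk2 at 14.1 ± 0.77 and the phosphofructokinases Pfkp and Pfkl at 2.88 ± 0.16 and 1.19 ± 0.072 TPM. All 8 pentose phosphate genes were expressed, led by transaldolase (Taldo1) at 429, 427 and 427 TPM, with G6pdx, the NADPH-forming entry enzyme, at 34.9 ± 1.06 TPM. All 31 nuclear respiratory chain genes were expressed at 1.82% ± 0.012 of TPM, led by Cox8a at 2334 ± 76.5 and Cox6b1 at 2130.2 ± 27.8 TPM, and the lowest was Ndufs1 at 1.94 ± 0.055 TPM. Of these, Cox8a is short, with a full length of 549 bases, and Ndufs1 is not, with 2732 bases. Over full length they stood at 2309 and 2.89 TPM. The 13 genes encoded in the mitochondrial genome were not in the tables. The citric acid cycle gave 22 of 24, led by Sdhb at 135 ± 2.12 and Mdh2 at 112 ± 1.60 TPM, and Acod1, which makes itaconate, was at 6.81, 7.51 and 7.68 TPM.

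Oxidant genes were prominent and uneven. Of 27 NADPH oxidase and redox genes 24 were expressed, with the glutathione peroxidase Gpx1 first at 4060.1 ± 73.1 TPM. Cyba, the small membrane subunit of the phagocyte oxidase, stood at 1587, 1655 and 1636 TPM and its catalytic partner Cybb at 35.9, 36.1 and 36.0 TPM. The cytosolic subunits Ncf4 and Ncf1 were at 151 ± 2.84 and 24.2 ± 0.23 TPM and the GTPase Rac2 at 267 ± 14.2 TPM. Thioredoxin (Txn1) was at 1096 ± 5.32 and Prdx5 at 807 ± 27.3 TPM. Nos2, which makes nitric oxide in activated macrophages, stood at 0.09, 0.09 and 0.09 TPM, with 17, 16 and 16 reads. Arginine metabolism was represented by Arg2 at 23.1, 22 and 24.5 TPM, while Arg1 was at 0.16, 0.17 and 0.07 TPM. In that amino acid and suppressor list 14 of 20 were expressed, led after Wfdc17 by the polyamine genes Oaz1 at 618 ± 2.12 and Sat1 at 335 ± 3.79 TPM, and Ido1 was at 0.023 ± 0.0058 TPM.

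Among eicosanoid genes 1 gene of leukotriene synthesis stood far above the rest. Alox5ap, the 5-lipoxygenase activating protein (chromosome 5, 149265004 to 149288153), stood at 2153, 2166 and 2177 TPM, against 8.67, 8.11 and 8.72 TPM for the enzyme Alox5. Lta4h, which completes leukotriene B4, was at 24.5 ± 0.33 and Ltc4s at 13.9 ± 0.64 TPM. Ptgs1 and Ptgs2, which begin prostaglandin synthesis, were at 1.91 ± 0.068 and 0.78 ± 0.091 TPM, so that 13 of 19 of the eicosanoid list were expressed. Of the fatty acid and lipid genes 23 of 30 were expressed, led by Fabp5 at 93.2 ± 2.34, Dgat1 at 31.3 ± 0.68 and the lipid droplet protein Plin2 at 28.3 ± 0.35 TPM. Fasn, Acaca, Scd1, Abca1 and the scavenger receptor Cd36 were below 1 TPM. Iron genes gave 9 of 16, with Ftl1 and Fth1, the ferritin chains, at 5300.2 ± 74.7 and 3374 ± 25.9 TPM, the haem oxygenase Hmox1 at 31.4 ± 0.56 and the transferrin receptor Tfrc at 0.11, 0.09 and 0.11 TPM.

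Interferon-responsive and antigen presentation genes completed the profile. Of 31 interferon response genes 29 were expressed at 2.49% ± 0.021 of TPM. Their sum came mainly from the Ifitm cluster on chromosome 7, where Ifitm3, Ifitm2, Ifitm1 and Ifitm6 stood at 8226 ± 58.9, 5949 ± 110.1, 3928 ± 149.8 and 3784 ± 65.3 TPM, and from Ifi27l2a at 2224 ± 45.4 TPM. Classical induced genes were lower, with Isg15 at 136 ± 1.91, Irf7 at 21.9 ± 0.33, Ifit3 at 5.77 ± 0.30, Ifit1 at 2.46 ± 0.031 and Rsad2 at 2.64 ± 0.18 TPM. The MHC class I list, which also holds antigen processing genes, gave 15 of 16. B2m was at 4559 ± 33.7, H2-D1 at 773 ± 14.7 and the immunoproteasome subunits Psmb8 and Psmb9 at 312 ± 6.73 and 242 ± 5.04 TPM. The exception, the class I activator Nlrc5, was at 1.04, 0.99 and 0.94 TPM.

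All 12 genes of the MHC class II list, which also holds the regulator Ciita and the costimulatory Cd80, Cd86 and Cd40, were expressed. Cd74, the invariant chain, stood at 961, 982 and 977, H2-Aa at 282, 289.6 and 288 and H2-Ab1 at 239.7, 254 and 255 TPM. The master regulator Ciita was at 5.81, 5.91 and 6.06 and the costimulatory Cd86 and Cd80 at 3.72 ± 0.0058 and 2.67 ± 0.27 TPM. Beside them stood the macrophage list at 24589 to 24769 TPM with C1qa, C1qb and C1qc expressed, and dendritic cell genes with Flt3, Zbtb46 and Itgax below 1 TPM, and their part in the class II levels was not tested. Of 22 survival and death genes 20 were expressed, led by Bax at 73.6 ± 2.05, Gadd45a at 64.4 ± 0.38, Mcl1, the survival factor on which neutrophils depend, at 49.0 ± 0.45 and Bad at 31.9 ± 2.34 TPM. The Bcl2a1 paralogs Bcl2a1b, Bcl2a1d and Bcl2a1a were at 29.3 ± 0.55, 14 ± 0.27 and 10.9 ± 0.53 TPM with reads possibly shared, and Bcl2 was at 0.34 ± 0.059 TPM. Over all lists, 567 of 870 different genes found in the tables were expressed (65.2%), against 29.2% of all genes.

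The other sort from cords of this model gave 1 point of reference. The library labelled Th1 held 3051730 reads against 23174908, 23564215 and 23474168 for the 3 macrophage-labelled libraries. Its reads fell on 6550 genes, against 13739, 13672 and 13655. Whether a gene without a read there was absent from the cells or lost from the library was not tested. Of the 16 listed T cell genes 14 had no read in it, Cd3d, Cd3e, Cd3g and Cd4 among them. This allows up to 0.983 CPM each. Lck, a kinase of T cell receptor signalling, had 422 reads there (66.3 TPM, against 0.15, 0.15 and 0.19 TPM in the sort). Of the 20 listed macrophage genes 4 had no read there. That list summed to 17531 TPM in the library labelled Th1, against 24769, 24589 and 24696 in the sort. Its highest genes there were Lyz2 at 11006, Apoe at 2049, Lgals3 at 1263 and Spp1 at 1089 TPM. Which cells carried them was not tested. By edgeR's quasi-likelihood test (adjusted p under 0.05 and at least 4-fold), 6245 of 11447 genes tested were higher in the CD11b+Gr-1+NK1.1+ sort (54.6%) and 1567 were lower (13.7%). Of the genes tested 5438 had no read in the library labelled Th1, so they passed the filter on low counts only through the deeper libraries in which they were high, and the excess of higher calls is in part built in. The scaling mattered, since the median log2 fold change of all genes was 5.61 with TMM, 4.32 with DESeq2 size factors and 6.25 with library size alone. With DESeq2's own test, over 13018 genes, the median was 1.36 and the calls were nearly even, at 2389 higher and 2376 lower. Under all 3 scalings 3440 genes were higher (30.1%) and 1098 lower (9.59%), and those calls are used here. The spread comes from the 3 macrophage-labelled libraries, which may differ only technically, and the lone library is assumed to vary like them. The calls therefore compare these libraries and not the cell populations.

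Lcn2 had 12.8 CPM in the library labelled Th1 and 13300, 13032 and 13173 in the sort, a log2 fold change of 8.51 that was called under each scaling. Ly6g and Ly6c2 had no Th1-labelled read. With the Th1-labelled library set at a floor of 3 reads, they were at least 129-fold and 959-fold higher under the smallest of the 3 scalings. That floor covers counting error alone and not transcripts lost from the library, so these folds compare reads. S100a8, S100a9 and Retnlg were present there too, at 3720, 1492 and 1027 CPM, and their log2 fold changes of 3.44, 3.26 and 3.08 became 1.92, 1.75 and 1.56 with DESeq2 size factors, under the 4-fold line. Itgam likewise had 3.42 and 1.91. Lyz2 was at 0.34 with TMM and -1.18 with DESeq2 size factors, so its direction depended on the scaling. Ly6c1 was lower in the sort under each scaling, at -6.25 with TMM.

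Plac8, Ifitm6, Wfdc21 and Ly6a2 followed Ly6c2 among the largest differences, at least 580-, 307-, 287- and 255-fold higher at the same floor. In the other direction the largest belonged to Ppic, Eps8l2, Nr2f1, Mkrn3 and Tnfrsf25, which had no read in the 3 macrophage-labelled libraries. With those libraries set at a floor of 3 reads, these genes were at least 13882-, 7875-, 5007-, 4265- and 3787-fold lower in the sort. These bounds are larger than those of the higher genes.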

How the data were processed

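RNA was extracted with Trizol and sequenced in pairs on the Illumina HiSeq platform, per the labels' protocols. The build was GRCm38, per the submitters' processing notes. No aligner or counter is named in the sources used here. Per the file headers, the authors deposited TPM, estimated counts and FPKM for each immune library. Levels are the deposited TPM, estimated counts as deposited were rounded for the count test, and FPKM as deposited by the authors gave, with the reads, the gene lengths behind the values. 5 columns of values were not used here. Blanks were taken as 0. Column codes appear in no label, so each column has a group but no replicate number. The deposited OPC table was not used here.

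The expressed genes and lists were chosen with earlier results of these data known. Named genes are the 7 markers, the 25 leaders, the sorting antigens, the 4 highest genes of each list and its defining genes under 1 TPM, the 10 most variable genes at 10 TPM or more, and the 5 largest differences each way. Other list genes were named for their role after their values were seen.

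The library labelled Th1 was compared by the quasi-likelihood test of edgeR 4.0.16 with TMM scaling and filterByExpr. Calls needed 4-fold or more and a Benjamini-Hochberg adjusted p below 0.05, and the test was tried on simulated data. DESeq2 1.42.0 gave other size factors and another test. Thresholds of 0.5 and 5 TPM, leaving out each library, no filter on low counts and TPM without the most abundant gene were also tried, and TPM over full length was chosen after seeing the data. Of 22064 gene IDs, 22002 matched the RefSeq table of GRCm38.p6, which gave coordinates and promoters, and transcript lengths came from GENCODE M21. Versions were matplotlib 3.10.9, scipy 1.17.1, pandas 2.3.3, numpy 2.4.6, Python 3.11.15 and R 4.3.3. Depth was 23174908 to 23564215 estimated reads per macrophage-labelled library, and read floors cover counting error only.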

Additional observations from a re-analysis of the deposited data

How the results depend on the processing

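No paired analysis was possible because the column codes carry no replicate number and the Th1 group has 1 library. With a threshold of 5 TPM, 3117 genes were expressed. Without 1 library in turn, the number of expressed genes ran from 6496 to 6504, listed genes expressed from 569 to 570, S100a8 from 30.9% to 31.1% and the neutrophil list from 44.1% to 44.2% of TPM, higher calls against the library labelled Th1 from 6203 to 6223 and lower calls from 1567 to 1575. At full length, chosen after seeing the data, S100a8 took 23.3% and the neutrophil list 36.8%, and without S100a8 the neutrophil list took 19.0%. Higher calls came to 3440 with DESeq2 size factors and 2389 with DESeq2's own test, and lower calls to 2376 with that test, which covered 13018 genes in place of 11447, and the cause was not tested. With DESeq2 size factors the log2 difference of Lyz2 turned to -1.18, while S100a8 (1.92), S100a9 (1.75), Retnlg (1.56) and Itgam (1.91) kept their direction but not the call.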
